A study of Mus musculus with 6 samples.

Results

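The 10 transcription factors that set and keep photoreceptor identity were followed in the retinal RNAseq of control and EFV-treated 5XFAD mice. They were taken by gene symbol as known regulators, with no threshold on their values, namely Crx, Nrl, Nr2e3, Otx2, Rorb, Thrb, Rxrg, Neurod1, Prdm1 and Mef2d. All 10 were found among the 19401 genes that the files list in at least 1 library, and all 10 had enough counts to be tested. No difference between EFV-treated and control mice in any of the 10 passed a test at the limits used, and their levels held the same order in every library.

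Each group had 3 libraries, and every library was a pool of retina plus RPE (retinal pigment epithelium) from 5 to 6 male mice aged 9 months. All animals, controls included, were hemizygous 5XFAD mice on the B6SJL background, which carry human amyloid precursor protein and human presenilin 1 transgenes with familial Alzheimer's disease mutations, driven by a neuronal Thy1 promoter. EFV (efavirenz, an anti-HIV drug that at low dose activates the cholesterol hydroxylase CYP46A1) was given in drinking water with Tween 80 from 3 to 9 months of age at 0.08 mg/kg of body weight according to the sample labels, and the study's methods give a slightly higher daily dose; controls drank water with Tween 80 only. There was no group without the transgenes, so only the effect of EFV within 5XFAD mice can be seen, and because the animals were pooled the spread given below is that between pools.

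Photoreceptors arise from dividing retinal progenitors when OTX2 switches on CRX, its close relative, and the pair of homeodomain proteins opens and activates photoreceptor genes. Rods and cones share this start. RORβ raises NRL, a leucine zipper protein that commits the cell to the rod fate and switches on NR2E3, and these factors together activate rod genes while NR2E3 represses cone genes. Without NRL the cell takes on a cone-like fate, and in cones thyroid hormone receptor β and its partner RXRγ set the balance of the cone opsins. PRDM1 (BLIMP1) holds the photoreceptor choice against the bipolar cell fate, NEUROD1 keeps photoreceptors alive, and MEF2D works with CRX at the genes of mature photoreceptors.

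The start regions of 4 of the factors are shown because they hold, or in the most abundant factor lack, the core letters that the listed factors bind. They are the RefSeq windows of the GRCm38.p6 build from 250 bases before to 50 bases after the annotated start, written 5′ to 3′ in the direction of the gene, with matches in capitals to TAATCC, the core bound by CRX and OTX2, or TGCTGA, the core bound by NRL, on either strand. All 10 factors had a window, and where several starts are listed for a gene the first was used. The windows are chr7:15879906-15880205 (minus strand) for Crx, chr14:17660710-17661009 (plus strand) for Thrb, chr2:79456587-79456886 (minus strand) for Neurod1 and chr14:55524203-55524502 (minus strand) for Nrl.
Crx: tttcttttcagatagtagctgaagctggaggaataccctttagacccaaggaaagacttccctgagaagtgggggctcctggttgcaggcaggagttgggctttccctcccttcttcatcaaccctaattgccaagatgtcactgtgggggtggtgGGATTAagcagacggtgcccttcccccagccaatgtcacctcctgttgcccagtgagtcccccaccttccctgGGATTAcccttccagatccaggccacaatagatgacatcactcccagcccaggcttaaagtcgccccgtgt
Thrb: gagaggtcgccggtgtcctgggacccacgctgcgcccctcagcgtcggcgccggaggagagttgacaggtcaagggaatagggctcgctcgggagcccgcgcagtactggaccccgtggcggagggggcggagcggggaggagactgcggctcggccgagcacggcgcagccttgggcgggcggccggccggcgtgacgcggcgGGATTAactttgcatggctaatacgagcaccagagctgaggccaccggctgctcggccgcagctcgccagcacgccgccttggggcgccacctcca
Neurod1: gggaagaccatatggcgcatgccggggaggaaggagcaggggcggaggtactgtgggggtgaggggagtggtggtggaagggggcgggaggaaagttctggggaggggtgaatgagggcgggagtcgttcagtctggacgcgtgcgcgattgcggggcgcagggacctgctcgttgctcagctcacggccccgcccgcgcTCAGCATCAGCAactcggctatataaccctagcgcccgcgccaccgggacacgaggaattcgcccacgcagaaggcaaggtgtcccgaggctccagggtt
Nrl: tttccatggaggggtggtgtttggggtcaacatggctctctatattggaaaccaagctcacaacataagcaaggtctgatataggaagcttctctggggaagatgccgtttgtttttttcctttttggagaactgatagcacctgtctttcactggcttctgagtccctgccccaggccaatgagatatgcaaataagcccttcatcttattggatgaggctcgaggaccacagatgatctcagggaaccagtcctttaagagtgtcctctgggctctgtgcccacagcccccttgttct
Counted to the first printed base, in Crx the matches to TAATCC begin 94 and 21 bases before the start, and in Thrb the match begins 46 bases before it, all on the other strand. For Thrb 2 windows are listed, and which isoform starts in the window shown was not examined. In Neurod1 adjacent matches to TGCTGA on the other strand begin 50 and 44 bases before the start, whereas the Nrl window has neither core. Among the 10 factors TAATCC was found in 2 windows (Crx and Thrb) and TGCTGA in 3 (Neurod1, Rorb and Mef2d), against 7.16% and 19.1% of all 27025 mouse promoter windows. The AGGTCA core of nuclear receptors was in 1 of the 10 windows (4335 of all windows) and the E-box CANNTG, which NEUROD1 binds, in 6 (19498 of all). A match is a description of these letters and not a measured binding site.

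The expected counts summed to between 23455167 and 24590278 per library, and 15537 genes were tested. Defining markers of rods, cones, bipolar cells, Müller glia, amacrine, horizontal and ganglion cells and RPE were above 0 in all 6 libraries. Control replicate 3 stood apart by lens genes, with a summed FPKM of 10 lens markers of 3415 against 28.5 to 159.0 in the other 5 libraries. All 9 lens markers tested passed the limits of the study given below, and 0 of them were higher in EFV libraries. Control replicate 2 had the lowest summed FPKM of 10 RPE markers, 32.9 against 54.8 to 69.1 in the others, and 9 of these 10 markers were higher in EFV libraries, 3 of them past the limits of the study given below. In tissue RNA of this kind fewer cells of a type and less RNA per cell cannot be told apart.

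The levels of the 10 factors spanned a wide range. FPKM is a fragment count divided by transcript length and by the library total, so levels can be set side by side between genes. From highest to lowest, the mean FPKM over the 6 libraries was 602.9 for Nrl, 480.1 for Crx, 316.7 for Nr2e3, 258.2 for Neurod1, 137.7 for Otx2, 100.5 for Mef2d, 24.4 for Rorb, 12.8 for Thrb, 3.93 for Rxrg and 2.68 for Prdm1. The range of each factor over the 6 libraries lay wholly above that of the next, so the order was the same in 6 of 6 libraries and no neighbours in it overlapped. The closest steps were from Nrl (lowest FPKM 555.6) to Crx (highest FPKM 509.7) and from Rxrg (lowest 3.68) to Prdm1 (highest 3.36), and the ends of the order were 225.3-fold apart. The first 6 factors were all among the 500 most abundant of the 15537 genes tested, Nrl at rank 39 and Crx at rank 56, whereas Prdm1 was at rank 11078.

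**Figure D1:**
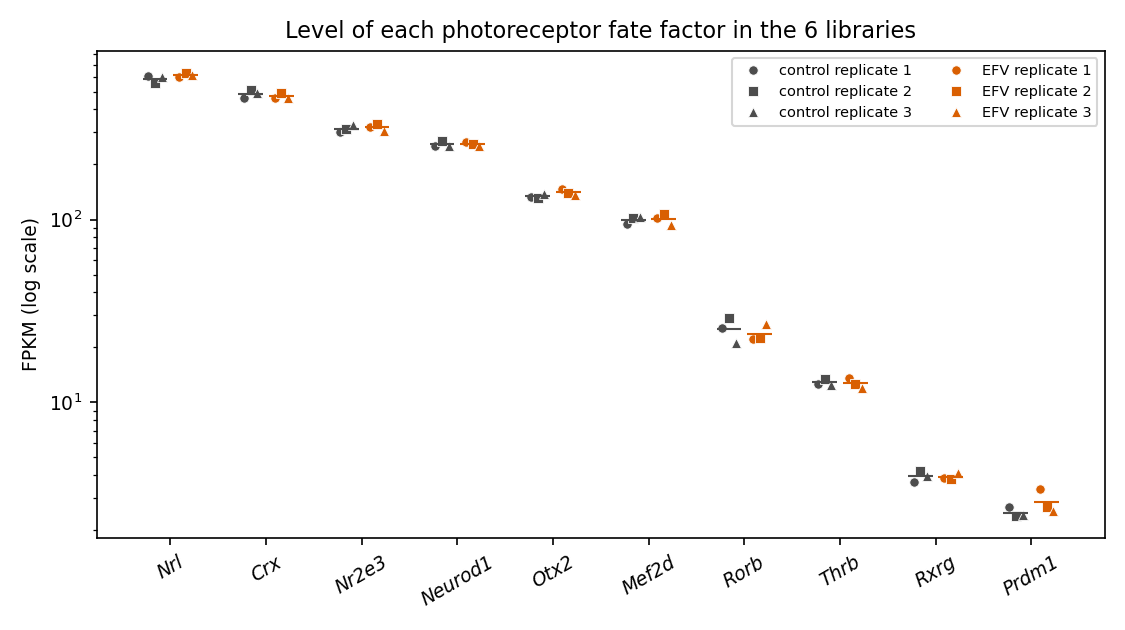
FPKM (log axis) of each photoreceptor fate factor in the 3 control (grey) and 3 EFV (orange) libraries, each symbol standing for a library and each line for the mean of 3. The 10 factors step down from Nrl at a mean of 602.9 to Prdm1 at 2.68, and grey and orange symbols overlap for every factor.

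Next, it was asked whether EFV altered these regulators. After Benjamini-Hochberg (BH) adjustment over all genes the edgeR p of every factor was 0.999, and 0.0% of all genes tested reached 0.05; the count of genes at an unadjusted p of 0.05 was 472, and DESeq2 gave 11 adjusted calls. The limits of the study are an unadjusted p up to 0.05 together with a level at least 7% higher in either group. The study based its p on the Poisson distribution, and here the edgeR p was used in its place. With the edgeR p 0 of the 10 passed these limits, against 3.01% of all genes tested (1.47% higher and 1.54% lower). At the unadjusted p alone it was again 0 of the 10, against 3.04%. With a Poisson model fitted here 2305 genes passed the limits, and of the 10 factors only Prdm1 did. The study's own list of changed genes was far shorter and held none of the 10, so this model does not reproduce its test. The groups overlapped for all 10, whereas 7.67% of all genes tested had 3 EFV libraries wholly above or below the 3 controls. By sign, 5 factors were higher and 5 lower, the log2 fold changes lay from -0.10 (Rorb) to 0.18 (Prdm1), and their median was -0.0037, next to 0.0012 for all genes tested. For 8 of the 10 the 95% interval of the fold change stayed within 1.2-fold in either direction, a bound chosen after the values were seen, and this was the case for 54.2% of all genes tested; the exceptions were Rorb and Prdm1.

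**Figure D2:**
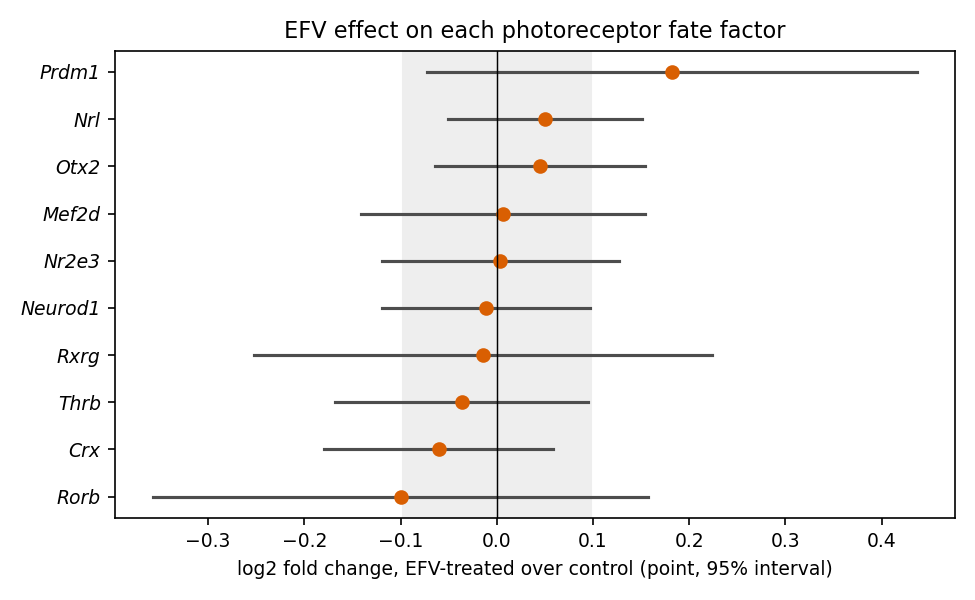
Log2 fold change of EFV-treated over control mice for each factor, with points for the edgeR estimate, bars for its 95% interval and a grey band for changes under 7%. Every bar crosses 0, and the widest belong to Prdm1 (-0.07 to 0.44) and Rorb (-0.36 to 0.16).

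Among the factors shared by rods and cones, Crx, the homeodomain activator of photoreceptor genes on chromosome 7 (15865947 to 15879968, minus strand, GRCm38), had FPKM values of 462.2, 509.7 and 490.4 in control and 464.9, 492.3 and 461.3 in EFV replicates 1, 2 and 3. Its highest library was thus a control and its lowest an EFV library, with the rest interleaved. The means were 487.4 ± 23.9 (SD, n = 3) and 472.8 ± 16.9 (SD, n = 3), and the log2 fold change was -0.06 with a 95% interval from -0.18 to 0.06. It was -0.02 without control replicate 2, and -0.10 without control replicate 1 or EFV replicate 2. Otx2, which acts before Crx and is also made by RPE and bipolar cells, stood at 133.2, 131.9 and 138.4 in control and at 147.6, 139.3 and 136.0 in EFV libraries. Otx2 lies on chromosome 14 (48657677 to 48673819, minus strand). EFV replicate 1 was the highest of the 6 and control replicate 2, the library low in RPE markers, was the lowest. The log2 fold change of Otx2 was 0.04 (interval from -0.06 to 0.15), and it was 0.06 in a fit with the RPE markers as a covariate, where that of Crx was 0.01. Without EFV replicate 1 that of Otx2 was 0.01, and without EFV replicate 3 it was 0.07.

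Neurod1, a basic helix-loop-helix activator, had the narrowest range of the 10, with 253.1, 268.5 and 251.2 in control and 265.3, 258.5 and 252.3 FPKM in EFV libraries. Its highest library was 1.069-fold above its lowest, and the log2 fold change was -0.01 (interval from -0.12 to 0.10). Neurod1 on chromosome 2 (79452521 to 79456751) shares 201 exon bases with Cerkl, annotated on the same strand, whose counts were far fewer (370 to 502 per library against 14862 to 15850), with a log2 fold change of -0.0074. Mef2d on chromosome 3 (88142372 to 88172086, plus strand), a MADS-box factor made in many cell types, stood at 94.3, 101.6 and 103.1 FPKM in control and at 102.3, 107.7 and 93.7 in EFV libraries, with a log2 fold change of 0.0065 (interval from -0.14 to 0.15). The EFV libraries held both the highest and the lowest value of Mef2d.

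Among the rod regulators, Nrl on chromosome 14 (55518978 to 55524981, minus strand), the switch between rod and cone fate, had FPKM values of 610.8, 555.6 and 600.1 in control and 599.0, 634.0 and 618.3 in EFV replicates 1, 2 and 3. Control replicate 2 was the lowest of the 6, and the remaining controls lay among the EFV libraries. The means were 588.8 ± 29.3 (SD, n = 3) and 617.1 ± 17.5 (SD, n = 3), a log2 fold change of 0.05 (interval from -0.05 to 0.15). It was 0.02 without control replicate 2, likewise 0.02 without EFV replicate 2, and 0.0062 with the RPE covariate. Nr2e3 on chromosome 9 (59942771 to 59960659, minus strand), the nuclear receptor that represses cone genes in rods, had values of 301.9, 310.8 and 330.7 in control and of 320.2, 332.2 and 304.4 in EFV libraries. Its log2 fold change of 0.0037 (interval from -0.12 to 0.13) was the smallest in size of the 10. Rorb on chromosome 19 (18930605 to 19111196, minus strand), the nuclear receptor that acts before Nrl and is also found in amacrine and horizontal cells, varied more, with 25.5, 28.8 and 21.1 FPKM in control and 22.1, 22.4 and 26.8 in EFV libraries. Its coefficient of variation was 15.4% in control and 11.1% in EFV libraries, while the medians over the 10 factors were 4.80% and 4.32% and those over all genes tested 6.36% and 6.73%. Both extremes of Rorb were controls, and its log2 fold change of -0.10 had an interval from -0.36 to 0.16.

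The cone regulators Thrb and Rxrg had lower FPKM than the rod regulators, at ranks 5539 and 10047 of the genes tested. Thrb on chromosome 14 (17660261 to 18038090, plus strand), whose β2 isoform is the cone form, stood at 12.6, 13.4 and 12.5 FPKM in control and 13.6, 12.7 and 11.9 in EFV libraries. The highest and the lowest value both came from EFV libraries, and the log2 fold change was -0.04 (interval from -0.17 to 0.09). The files sum 7 transcripts for Thrb, 2 from RefSeq and 5 that they name BGI_novel, so its isoforms cannot be told apart. Rxrg on chromosome 1 (167598384 to 167639623, plus strand), its heterodimer partner, had 3.68, 4.19 and 3.97 FPKM in control and 3.87, 3.80 and 4.08 in EFV libraries, from only 180 to 198 counts per library. The EFV libraries all lay inside the control range, with a log2 fold change of -0.01 (interval from -0.25 to 0.22). The mean transcript length of Rxrg, which RSEM weights by its isoforms, moved between 1989 and 2083 bases over the libraries, the widest movement of the 10 factors at 4.71%.

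Prdm1 on chromosome 10 (44437177 to 44528501, minus strand), the zinc finger repressor that keeps young photoreceptors from the bipolar fate and that immune and vascular cells also make, had the largest fold change of the 10. Its FPKM was 2.67, 2.39 and 2.42 in control and 3.36, 2.69 and 2.53 in EFV replicates 1, 2 and 3, from 290 to 426 counts per library. EFV replicate 1 stood above all others, and EFV replicate 3 lay below control replicate 1. The log2 fold change of 0.18 (SE 0.11, interval from -0.07 to 0.44) did not pass (adjusted p = 0.999, edgeR). It was 0.05 without EFV replicate 1 and 0.27 without EFV replicate 3, and only in the latter of the fits that leave out a library did it pass the limits of the study. Beside it, the summed FPKM of 8 microglial markers (3 of the 7 tested higher in EFV libraries) was 15.4 to 16.6 in control and 15.0 to 15.4 in EFV libraries. That of 8 endothelial markers, 1 of them higher, was 52.0 to 57.9 and 50.2 to 56.3, none of either list was at 0 in any library, and their part in the Prdm1 values was not tested.

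Looked at by library, control replicate 2 held the highest FPKM of 4 factors (Crx, Rorb, Rxrg and Neurod1) and the lowest of 3 (Nrl, Otx2 and Prdm1), whereas EFV replicates 1 and 2 each held the highest of 3 and the lowest of none. The summed FPKM of the 10 factors lay between 1900.0 in control replicate 1 and 2005 in EFV replicate 2. Without control replicate 2 the log2 fold change of Rorb was 0.02 in place of -0.10, and without control replicate 3 it was -0.21.

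Ratios within a library are free of library scaling, and 4 were compared by an exact two-sided permutation test over libraries, whose smallest p with 3 against 3 is 0.10. Nrl to Crx, the rod switch over the shared activator, was 1.32, 1.09 and 1.22 in control and 1.29, 1.29 and 1.34 in EFV libraries, with control replicate 2 the lowest. The EFV libraries were 1.08-fold higher (exact permutation p = 0.30), and the log2 difference fell from 0.11 to 0.04 without control replicate 2. Crx to Otx2 was 3.47, 3.86 and 3.54 in control and 3.15, 3.54 and 3.39 in EFV libraries. The groups overlapped, with EFV replicate 2 above control replicate 1, and the ratio of the geometric means was 0.926 (exact permutation p = 0.20). The log2 difference moved from -0.11 to -0.06 without control replicate 2 and likewise to -0.06 without EFV replicate 1. Nr2e3 to Rxrg, a rod over a cone regulator, lay between 74.2 and 83.3 in control and between 74.6 and 87.4 in EFV libraries, 1.02-fold apart on average (exact permutation p = 0.70). Opn1sw to Opn1mw, the short-wave over the middle-wave cone opsin whose balance thyroid hormone receptor β sets, was 1.68, 1.98 and 1.95 in control and 1.71, 1.78 and 1.58 in EFV libraries. The groups overlapped and the ratio of the geometric means was 0.905 (exact permutation p = 0.30), with a log2 difference of -0.14 that was -0.22 without control replicate 1. With BH adjustment over the 4 ratios the exact permutation p was 0.40 for 3 of them and 0.70 for Nr2e3 to Rxrg.

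**Figure D3:**
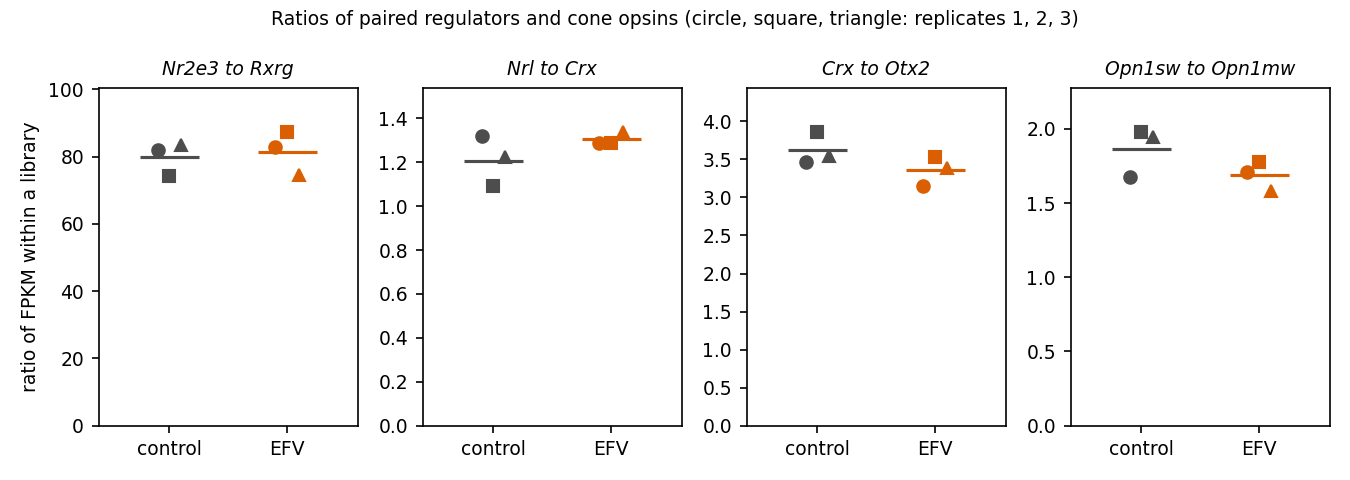
Ratios of FPKM within each library for Nr2e3 to Rxrg, Nrl to Crx, Crx to Otx2 and Opn1sw to Opn1mw, on axes that start at 0, with symbols for the replicates and lines for the group means on the log scale. Control and EFV libraries overlap in each panel, and control replicate 2 (square) has the lowest Nrl to Crx ratio at 1.09.

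The factors differed in how far they stood out from relatives of their own families, a set of genes grouped by homology after their values were seen. Nrl made up 98.5 to 98.8% of the summed FPKM of Nrl, Maf and Mafa, and Nr2e3 made up 98.4 to 98.6% of that of Nr2e3 and Nr2e1. Neurod1 was 4.65-fold above Neurod4, which bipolar and amacrine cells use, and Mef2d was 4.04-fold above Mef2a and 4.48-fold above Mef2c. The nuclear receptors of cones had lower FPKM than their relatives. Thrb was 9.74 to 11.1% of the sum with Thra, whose mean was 8.69-fold higher, values that are uncertain because Thra overlaps Nr1d1 on the opposite strand and shares counts with other genes. Rxrg was 9.81 to 11.3% of the 3 RXR genes, with Rxrb 5.42-fold and Rxra 3.30-fold higher in the mean. Rorb and Rora were nearly level at means of 24.4 and 21.2 FPKM, with Rorb higher in 5 of 6 libraries. Prdm8, a bipolar and amacrine factor, was 17.4-fold above Prdm1. None of the tested relatives passed the limits of the study in this comparison, and Mef2b was listed at 0 in 5 libraries and had an FPKM of 1.08 in EFV replicate 2.

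**Figure D4:**
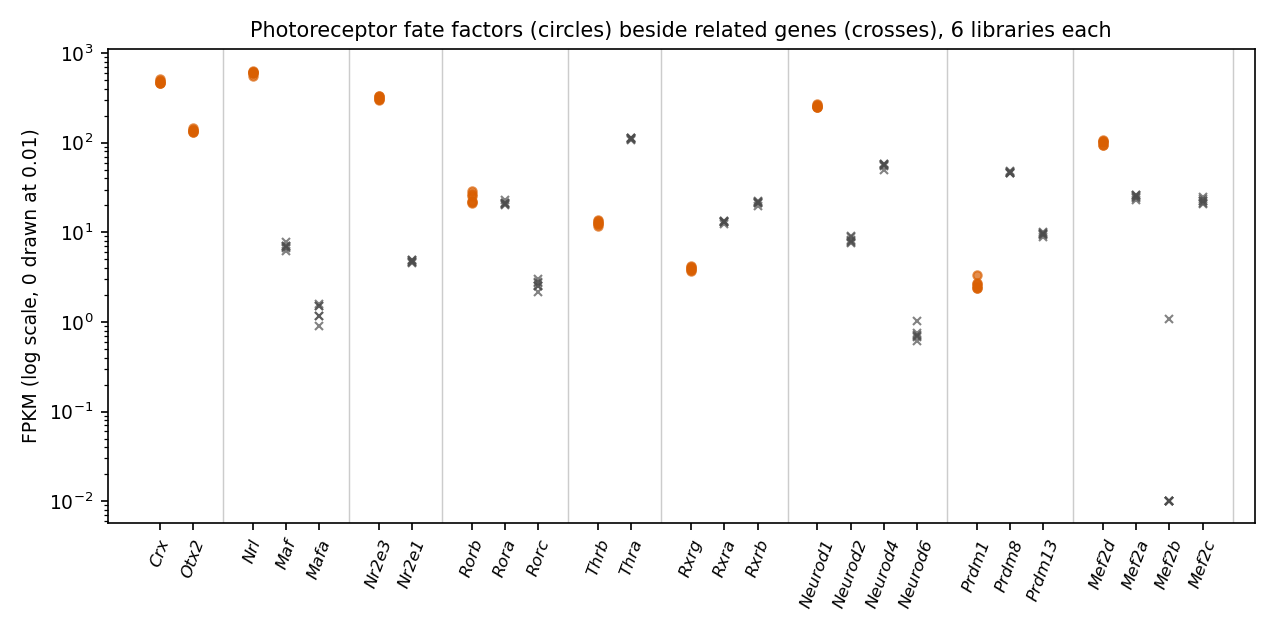
FPKM (log axis, with 0 drawn at 0.01) in the 6 libraries of the fate factors (orange circles) and their relatives (grey crosses), by family. Nrl, Nr2e3, Neurod1 and Mef2d lie above all their relatives shown, whereas Thrb, Rxrg and Prdm1 lie below theirs.

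The genes around the factors were described by 6 lists. Of 22 rod genes controlled by CRX and NRL, all tested, 8 were higher and 14 lower, the median log2 fold change was -0.03, and 2 passed the limits of the study, both lower, next to 1.54% of all genes tested in that direction. The study's own list of changed genes also holds both, Esrrb and Pde6g, as lower after EFV. Esrrb, a nuclear receptor that supports rods, was the lower of these in log2 fold change, and its FPKM was 121.2, 147.6 and 120.0 in control and 105.5, 112.6 and 111.8 in EFV libraries. The groups were wholly apart for 2 of the 22 rod genes, against 7.67% of all genes tested. For Esrrb all 3 EFV libraries lay below all controls, and control replicate 2, the library lowest in RPE markers, was the highest. The log2 fold change was -0.25 (SE 0.08, interval from -0.44 to -0.07, adjusted p = 0.999, edgeR). It was -0.14 without control replicate 2, and -0.11 with the RPE markers as a covariate, where it no longer passed. That covariate was higher in every EFV library than in every control, if only slightly in EFV replicate 1, so the fit cannot fully tell RPE content from EFV. The summed FPKM of 8 rod markers, 2 of them higher in EFV libraries, was 27257 to 28171 in control and 25942 to 27518 in EFV libraries. Its part in the Esrrb values was not tested. Pde6g, a subunit of the rod phosphodiesterase, had a log2 fold change of -0.14 (adjusted p = 0.999, edgeR), from 2416 ± 154.0 to 2224 ± 36.4 FPKM (SD, n = 3 each), and did not pass under 7 of 17 alternatives, among them 4 of the 6 that leave out a library and the fit with the RPE markers as a covariate, where its log2 fold change was -0.06. It was -0.09 without control replicate 2. Gnat1, rod transducin and among the most abundant of the list (7847 ± 268.9 and 7599 ± 70.7 FPKM, SD, n = 3 each), had a log2 fold change of -0.06 and did not pass; it was -0.03 without control replicate 2 and -0.0060 with the RPE covariate. Of the 14 rod genes with a promoter window 7 held TAATCC, namely Gngt1, Cnga1, Cngb1, Sag, Guca1a, Gucy2f and Abca4, and 3 held TGCTGA. Among all mouse promoter windows 7.16% held TAATCC and 19.1% held TGCTGA, and the difference from these shares was not tested.

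Of 15 cone genes 14 were tested, 4 higher and 10 lower, with a median of -0.03. Kcne2, a potassium channel subunit, was the 1 that passed, lower, next to 1.54% of all genes tested in that direction. Kcne2 is not on the study's own list of changed genes. Its log2 fold change was -0.12 (adjusted p = 0.999, edgeR), and it did not pass under 12 of the 17 alternatives. Gngt2, a cone transducin subunit, had all EFV libraries (58.0 to 65.2 FPKM) below all controls (66.3 to 67.95), with a log2 fold change of -0.13 (interval from -0.27 to 0.0025), which missed the limits. The groups were wholly apart for 2 of the 14 cone genes tested, against 7.67% of all genes tested. Gnb3 and Pde6h, the most abundant of this list in whole retina plus RPE, had log2 fold changes of -0.04 and -0.02. Opn1sw had -0.10 (means 161.8 and 152.5 FPKM) and Opn1mw 0.04 (86.7 and 90.5), and neither passed. Without control replicate 1 the log2 fold change of Opn1sw was -0.17 and passed the limits of the study, as it did under the Poisson model, and it was -0.05 with the RPE covariate.

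None of the progenitor factors, cofactors and bipolar factors passed the limits of the study. Of 23 progenitor factors 21 were tested, 7 higher and 14 lower. Pax6, which persists in amacrine cells, was among the most abundant (mean in control 80.7 FPKM) with a log2 fold change of 0.02; the lowest p belonged to Ikzf1, with a log2 fold change of 0.58 from 10 to 23 counts per library, and Sox2, with -0.09. Of 17 cofactors 6 were higher and 11 lower, between -0.07 and 0.09, with Samd11 (-0.02) and Samd7 (-0.07), repressors that silence non-rod genes in rods, the most abundant and Rb1 (0.09) and Hdac3 (-0.05) following in p. Of 13 bipolar factors, the fate that PRDM1 opposes, 5 were higher and 8 lower, between -0.07 and 0.08, among them Sebox (-0.01), Prdm8 (-0.03) and Sall3 (0.08). Of 28 related nuclear receptors and MEF2 factors 27 were tested, 13 higher and 14 lower. The 1 that passed was Esrrb again, lower, next to 1.54% of all genes tested in that direction. Nr1d1 and Thra, the most abundant of these with log2 fold changes of -0.0070 and -0.07, are uncertain because the genes overlap on opposite strands and share counts.

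**Figure D5:**
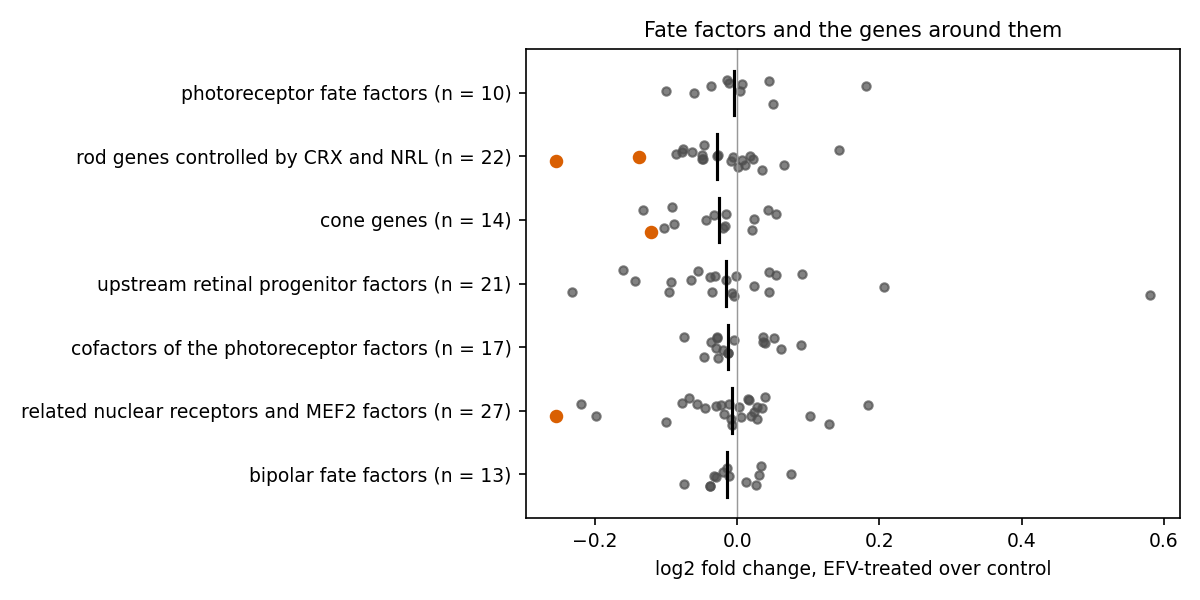
Log2 fold change of EFV-treated over control mice for each tested gene of the fate factors and the 6 lists, each point a gene, with black lines for the medians and orange points for genes past the limits of the study. The medians lie between -0.03 and 0, and the orange points are Esrrb (on both of its lists), Pde6g and Kcne2.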

How the data were processed

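Per the labels, poly-A RNA from pools of 5 to 6 mice was sequenced, 3 control and 3 EFV libraries; per the study's methods the animals were male and the pools were of retina plus RPE. The authors aligned filtered reads to mm10 with Bowtie2 2.2.5 and deposited RSEM 1.2.12 expected counts per gene, not normalized, and FPKM, which the authors divided by transcript length and library total; HISAT2 2.0.4 is also named in the submitters' processing notes. The deposited transcript length (bases) is the RSEM mean over isoforms. Annotation release and strandedness are not given in the sources used here. A gene not listed in a library was taken as 0. Reads that fit several genes are divided, which gave Crx, Nrl and Thrb counts that were not whole in any library.

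Expected counts were rounded, and a gene was tested if 3 or more of the 6 libraries had 10 or more counts of it (15537, of which 1160 are BGI_novel) with the quasi-likelihood test of edgeR 4.0.16 in R 4.3.3, TMM scaling (factors 0.984 to 1.01), group as the only term and BH adjustment over all genes. The biological coefficient of variation was 0.0983. Intervals are 95%. Counting error weighs most on Rxrg and Prdm1. No 2 libraries were alike within sampling noise, with chi-square statistics per degree of freedom between 5.51 and 13.8. Alternatives used DESeq2 1.42.0, limma 3.58.1 on log2 FPKM, a Poisson model, other scalings and filters, an RPE covariate, the replicate number as a block, and each library left out. The RPE covariate was higher in every EFV library than in every control, so it cannot be fully separated from the treatment. The gap was small between EFV replicate 1 (2.589) and control replicate 1 (2.565), and control replicate 2 was the lowest (2.09). Ratios were tested with scipy 1.17.1. Gene positions came from GENCODE on GRCm38 and promoters from RefSeq.

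The 10 factors and all lists were chosen with earlier results of these data known. Named of each list were the 2 most abundant genes, all past the limits of the study and otherwise the lowest p up to 2. Also named were all 10 factors, the genes of the ratios and any gene whose exons overlap a factor. Of 6 such overlapping genes in the annotation only Cerkl was analysed here, as the others are not listed in any library. Among them, 1700113A16Rik shares 531 exon bases with Mef2d, and Otx2os1 and Gm49154 share 154 and 168 with Otx2. Whether their reads entered the counts of these factors was not tested. Some genes that this rule names are not reported here.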

Additional observations from a re-analysis of the deposited data

How the results depend on the processing

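Over 17 alternatives the 10 factors gave 170 gene-level results, of which 149 kept the sign and the side of the limits, 19 changed sign and 2 newly passed. The cause of the sign changes was not tested. No factor passed the adjusted limit except under the Poisson model, which called 5 (Crx, Nrl, Otx2, Prdm1 and Rorb) and has no term for the spread between pools. At the limits of the study 0 factors passed except Prdm1, 1 under the Poisson model (0.18) and 0 to 1 with libraries left out, and without EFV replicate 1 its log2 fold change was 0.05. Of the lists 3 genes passed (Esrrb, Pde6g and Kcne2), against 1 under each limma fit (Esrrb), 1 under the RPE covariate (Rp1, and none of the 3), 9 under the Poisson model and 1 to 7 with libraries left out. The 1 was Esrrb, without control replicate 2 or EFV replicate 1, and the 7, without control replicate 1, lacked Pde6g and held Casz1, Ccdc136, Mef2c, Opn1sw and Rara beside Esrrb and Kcne2. Genes outside the rule for names were named here after their values were seen. Over all genes the adjusted calls were 11 by DESeq2, 2043 by the Poisson model and 0 to 1 with libraries left out, and the calls at the limits of the study were 269, 2305 and 389 to 576. The share of those calls that were higher in EFV-treated mice was 48.8% in the main fit, 64.4% with total counts and 60.7% and 60.1% with limma on log2(FPKM + 0.1) and log2(FPKM + 1).

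The following log2 fold changes changed sign. With total counts only they were Rxrg 0.0015, Neurod1 0.0046, Pde6h 0.00011, Nr1d1 0.0087, Sebox 0.0037 and Cerkl 0.0076. With limma and a pseudocount of 0.1 they were Neurod1 0.0062, Pde6h 0.0025, Nr1d1 0.0089, Sebox 0.0069 and Cerkl 0.02, and with a pseudocount of 1 Neurod1 0.0062, Pde6h 0.0025, Nr1d1 0.0089, Sebox 0.0067 and Cerkl 0.017. With the RPE covariate they were Crx 0.012, Thrb 0.060, Rxrg 0.062, Neurod1 0.061, Pax6 -0.0093, Samd11 0.10, Nr1d1 0.023 and Opn1mw -0.0040. With each library left out, the range was -0.036 to 0.041 for Nr2e3, -0.21 to 0.018 for Rorb, -0.082 to 0.013 for Thrb, -0.065 to 0.051 for Rxrg, -0.031 to 0.026 for Neurod1, -0.050 to 0.064 for Mef2d, -0.085 to 0.042 for Pde6h, -0.0015 to 0.042 for Pax6, -0.087 to 0.049 for Samd11, -0.13 to 0.0049 for Samd7, -0.045 to 0.045 for Nr1d1, -0.045 to 0.028 for Sebox, -0.014 to 0.17 for Sall3, -0.0045 to 0.093 for Opn1mw and -0.10 to 0.14 for Cerkl. The Nr2e3 to Rxrg difference ran from -0.022 to 0.093, and was below 0 without control replicate 2 and without EFV replicate 2; the other ratios kept their sign.

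The replicate block gave 0 adjusted calls and 514 calls at the limits of the study, none of them a factor, turned Cerkl to 0.0014 and lost Kcne2. Nothing says that the numbers pair the pools, and over all genes tested the deviations of same-numbered libraries correlated at 0.0999, 0.0777 and 0.111, each the highest for its library, as a hint from the data only. Over the 5000 most abundant genes they correlated at 0.103, 0.275 and 0.228, but control replicate 1 correlated best with EFV replicate 2, at 0.112.

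With 3 pools a group, the 95% intervals still allow levels up to 1.11-fold higher for Nrl and up to 1.35-fold higher for Prdm1 in EFV-treated mice. Counts of 180 to 198 limit Rxrg.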

Other observations

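Of the biological processes that the files attach to genes, 7 of the 10 fate factors (Crx, Mef2d, Nr2e3, Nrl, Rorb, Rxrg and Thrb) were annotated with positive regulation of transcription from an RNA polymerase II promoter, as were 693 of the genes tested, and 3 (Crx, Nr2e3 and Rorb) with retina development in camera-type eye, as were 59. The transcripts summed for Nrl numbered 8, of which 4 were named BGI_novel, whereas Nr2e3, Neurod1 and Prdm1 each had 1 transcript, from RefSeq.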
